A study of Drosophila melanogaster with 2 samples.

Results

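The 9 genes described here encode chaperones and folding factors of the endoplasmic reticulum (ER): Hsc70-3, Gp93, Calr, Cnx99A, Sil1, P58IPK, Grp170, Manf and Uggt. They were listed by name, out of 13945 nuclear protein-coding genes on the chromosome arms that carry peaks. No cut on a measured value was used, but earlier results of these data were known when they were chosen. The data are chromatin immunoprecipitation with sequencing (ChIP-seq) peaks of CrebA, the fly relative of the mammalian CREB3 proteins, which are bZIP transcription factors. The material was whole Drosophila melanogaster larvae at the wandering stage of the third instar, males and females together and of unstated age, of a strain labelled CrebA-MiMIC-GFP. In that strain an eGFP exon in an intron of CrebA tags the protein, and an anti-GFP antibody pulled down the chromatin. There is 1 group of 2 biological replicates, labelled 4 and 2, both from the same line, with no second genotype, stage or treatment, so nothing is compared between conditions. A peak from whole larvae does not tell which tissue it came from, and no untagged strain was analysed here.

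Proteins that enter the ER are folded by several chaperone systems. The Hsp70-type protein BiP, encoded by Hsc70-3, binds unfolded chains in cycles of ATP hydrolysis that J-domain proteins start and nucleotide exchange factors end. Gp93, the Hsp90-type chaperone, acts on a smaller set of clients, and calreticulin, calnexin and the glucosyltransferase Uggt hold glycoproteins in a cycle of sugar trimming and re-addition until they are folded. CrebA is known in embryos as an activator of secretory pathway genes, and ACGTG is a core shared by the sites of CREB3-type and Xbp1-type bZIP factors.

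The sequence at each optimal summit of a member is given first, because all of them held that core. The optimal list is the one that the authors thresholded by the irreproducible discovery rate (IDR), which compares peak ranks between replicates. Some optimal summits still lacked a close summit in a replicate, as given below. Each run is written 5′ to 3′ on the strand of the gene, from the Release 6 (dm6) reference. It spans 100 bp to either side of the summit, cut where an annotated exon of a protein-coding gene begins. Capitals mark ACGTG on either strand and, where present, the longer CACGTCA. The Hsc70-3 summits are numbered in the direction of transcription. Grp170, which had no peak, is added with the 100 bases before its upstream start because they end in the same 7 letters.
Hsc70-3 summit 1, chrX:11807385-11807585, minus strand: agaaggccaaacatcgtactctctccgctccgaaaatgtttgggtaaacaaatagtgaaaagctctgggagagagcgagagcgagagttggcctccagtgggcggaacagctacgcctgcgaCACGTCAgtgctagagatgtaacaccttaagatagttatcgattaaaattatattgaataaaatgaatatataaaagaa
Hsc70-3 summit 2, chrX:11806354-11806512, minus strand: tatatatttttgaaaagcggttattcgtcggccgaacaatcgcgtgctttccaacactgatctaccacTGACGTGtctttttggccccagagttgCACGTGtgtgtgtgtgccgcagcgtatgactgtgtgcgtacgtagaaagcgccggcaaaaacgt
Hsc70-3 summit 3, chrX:11805522-11805722, minus strand: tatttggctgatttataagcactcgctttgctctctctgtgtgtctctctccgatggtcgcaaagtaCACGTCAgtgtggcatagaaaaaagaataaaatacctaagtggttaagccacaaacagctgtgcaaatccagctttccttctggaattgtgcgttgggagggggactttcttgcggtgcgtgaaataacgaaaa
Hsc70-3 summit 4, chrX:11805365-11805523, minus strand: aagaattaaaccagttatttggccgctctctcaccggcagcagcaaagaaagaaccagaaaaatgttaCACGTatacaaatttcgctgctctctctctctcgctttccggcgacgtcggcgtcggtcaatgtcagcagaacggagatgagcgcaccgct
Calr intron summit, chr3R:9630195-9630395, minus strand: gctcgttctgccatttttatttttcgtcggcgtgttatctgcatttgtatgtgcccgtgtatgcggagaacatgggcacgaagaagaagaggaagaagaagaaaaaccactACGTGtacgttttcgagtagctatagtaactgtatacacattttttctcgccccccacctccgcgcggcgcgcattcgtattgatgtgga
Manf summit, chr3R:16349272-16349403, plus strand: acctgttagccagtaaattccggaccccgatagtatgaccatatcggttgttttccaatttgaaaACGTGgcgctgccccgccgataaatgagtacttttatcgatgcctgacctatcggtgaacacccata
Grp170 upstream stretch, chrX:2275069-2275168, minus strand: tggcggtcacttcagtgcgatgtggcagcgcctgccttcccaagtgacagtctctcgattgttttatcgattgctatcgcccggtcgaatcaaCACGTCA

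CrebA-eGFP peaks were found at a few of these genes and were strong there, while other members had none. Only Hsc70-3 and Manf, 2 of the 9 members (22.2%), had an optimal peak at the promoter, meaning a summit within 500 bp of an annotated transcript start, against 5.07% of all nuclear protein-coding genes. Calr had a strong optimal peak in an intron, 556 bp from its start and so just outside that distance. With it, 3 members had an optimal peak in the gene or within 2000 bp of it, against 11.1% of all genes. Cnx99A and Sil1 had promoter peaks in the relaxed lists alone, that of Cnx99A just below the optimal list and that of Sil1 weak. Gp93, P58IPK, Grp170 and Uggt had no summit in the gene or within 2000 bp in any of the 4 lists (optimal, pooled relaxed and the relaxed list of each replicate). That was 4 of 9 members, and the same held for 46.1% of all genes, so the share without any peak was near the background. The members were chosen with earlier results of these data known, and these counts carry no test.

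All 3 relaxed lists hold 29999 peaks each, a fixed length that includes background, so a place in a relaxed list says little without its rank. Signal is the authors' peak value in units that the deposited notes do not define. Its scaling to depth is not given, so replicates are compared by rank, where 1 is the strongest nuclear peak of a list. The optimal list holds 2209 nuclear peaks with a median signal of 110 and a highest signal of 779.8, and 29 mitochondrial peaks that were left out of the ranks. Every optimal member summit had the same signal and nuclear rank in the pooled list, so these lists are not separate evidence. Of the 2209 nuclear optimal summits, 84 had no replicate 4 summit within 200 bp and 15 no replicate 2 summit.

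**Figure D1:**
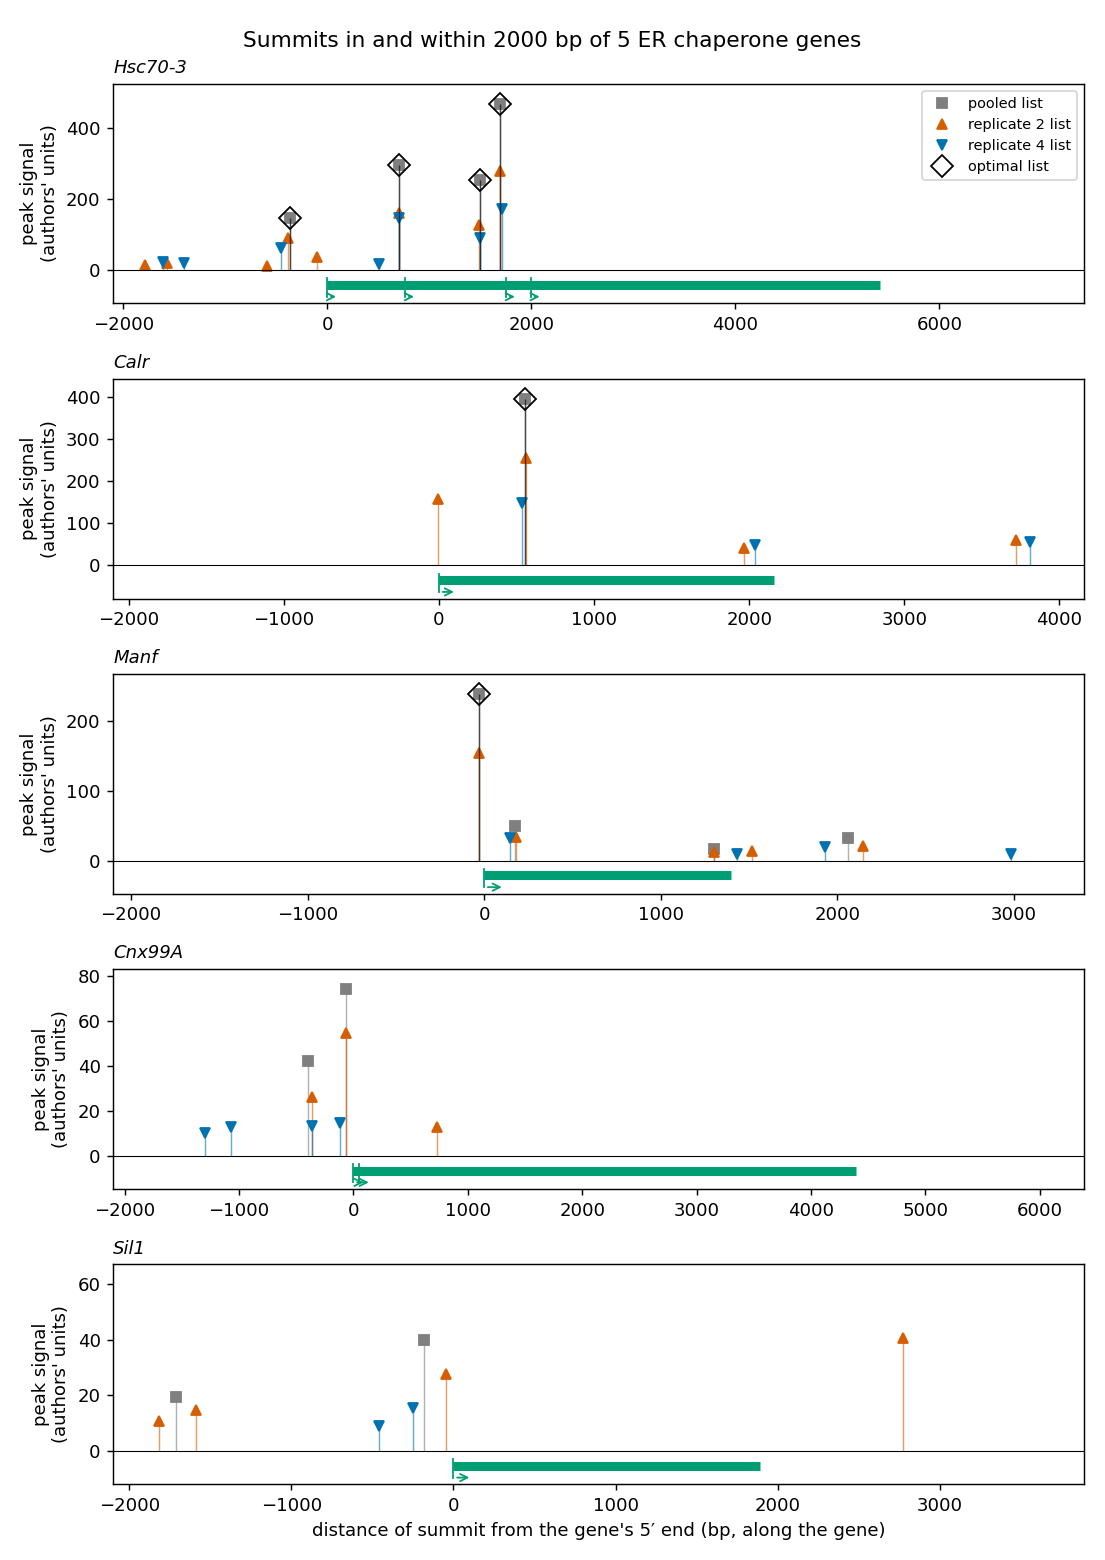
Peak signal (vertical axis, the authors' units) of every summit in or within 2000 bp of 5 members, against distance in bp from the 5′ end of the gene along its strand. Open diamonds are optimal summits, squares the pooled list, triangles the replicates; the green bar is the gene and the arrows are annotated starts. Hsc70-3 shows 4 optimal summits upstream of its starts, Calr 1 inside the gene, Manf 1 at its start, and Cnx99A and Sil1 none.

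Hsc70-3 (FBgn0001218, chrX:11801696-11807117, minus strand), the ER Hsp70, carried 4 optimal summits, all within 500 bp of a start. Its 5 annotated transcripts use 4 start sites. Summit 4, the strongest, lay 59 bp upstream of the third start, in an intron of longer transcripts. Its signal was 467 in the optimal and pooled lists (rank 24 of 2209), 171 in replicate 4 and 278 in replicate 2. It ranked 27 in both replicates, and their summits were 23 bp apart.

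Summit 3, 258 bp upstream of the same start, had a signal of 254 (rank 130), with 90.0 in replicate 4 and 127 in replicate 2. Its ranks of 244 and 245 were again nearly equal. The optimal and pooled lists give summits 3 and 4 within 1 interval, chrX:11805269-11805767. Each replicate lists an interval for each of them, and these intervals overlap.

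Summit 2 (chrX:11806308-11806562) lay 59 bp upstream of the second start, the same distance as summit 4 from the third. Its signal was 296 (rank 85), with 146 in replicate 4 (rank 60) and 161 in replicate 2 (rank 129). The replicate summits were 2 bp apart. Summit 1 (chrX:11807283-11807686) lay 368 bp upstream of the 5′ end of the gene, outside any of its transcripts. It was the weakest, at 147 (rank 579), with 61.7 in replicate 4 (rank 704) and 89.2 in replicate 2 (rank 634), and its replicate summits were 76 bp apart.

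All 4 Hsc70-3 summits had a counterpart in both replicates. Over the 2209 nuclear optimal summits, 2110 (95.5%) had a summit of each replicate within 200 bp, with a median gap of 33 bp between the replicates and a 75th percentile of 62. Having 4 optimal promoter summits was rare: it occurred in 6 of 13945 genes, namely Hsc70-3, px, mtd, bbg, cnc and RapGAP1. The number of starts raises the number of places that count as promoter. Of the 440 genes with 4 or more starts, 30.0% had an optimal promoter peak and 5 had 4 optimal summits, Hsc70-3 among them.

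Of the factors that act with BiP, Manf had a strong peak, Sil1 a weak one, and P58IPK and Grp170 none. Manf (FBgn0027095, chr3R:16349404-16350801, plus strand), whose mammalian counterpart binds BiP, had an optimal summit 32 bp upstream of its start (chr3R:16349265-16349423). Its signal was 239 (rank 151), and replicate 2 had a peak of 154 with its summit at the same base (rank 142). Replicate 4 had no summit there. The nearest one in replicate 4 lay 148 bp inside the gene, in its coding exon, with a signal of 32.0 (rank 2800), and its interval, chr3R:16349360-16349743, extended over the base of the optimal summit. A second, weaker summit close to that position was listed in replicate 2 (33.3, 179 bp into the gene) and in the pooled list (50.1, 173 bp). A strong summit 32 bp upstream of Manf was thus listed in replicate 2 and in the pooled and optimal lists, and not in replicate 4.

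The pooled signal at the Manf summit was 1.29 times the sum of the replicate signals matched within 200 bp. The signal matched in replicate 4 was that of the coding-exon summit, 180 bp from the optimal one, so this sum joins different positions. Over nuclear optimal peaks the median of this ratio was 1.00 and the 95th percentile 1.14. The other member summit above that percentile was Hsc70-3 summit 3, at 1.17. The Manf interval, at 159 bp, was narrower than most, since 5.30% of nuclear optimal peaks were narrower still and the median width was 404 bp. The summit also lay 146 bp from the start of CG14879, which is transcribed in the opposite direction, so the peak counts for both genes.

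Sil1 (FBgn0039296, chr3R:25233636-25235529, minus strand) encodes a nucleotide exchange factor of BiP. Its pooled promoter summit lay 181 bp upstream of the start with a signal of 40.0 (rank 5853). In replicate 2 the promoter summit was 45 bp upstream (27.7, rank 5879), and in replicate 4 the stronger of its promoter summits was 251 bp upstream (15.3, rank 10753). These replicate summits were more than 200 bp apart. The nearest optimal summit was 29661 bp from the start.

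P58IPK (FBgn0037718, chr3R:9586942-9589581, plus strand), a J-domain co-chaperone, had its nearest pooled summit 13707 bp from its start and its nearest optimal one 26309 bp away. Grp170 (FBgn0023529, chrX:2271008-2275068, minus strand), a large Hsp70-related exchange factor, had its nearest pooled summit 19774 bp and its nearest optimal summit 20556 bp from a start. In both cases the replicate lists gave no closer summit than 12233 bp.

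The Hsp90-type gene Gp93 (FBgn0039562, chr3R:27948711-27952151, plus strand) was the member farthest from any optimal peak, at 312555 bp. Its nearest pooled summit was 23183 bp away, and the nearest summits of replicates 4 and 2 were 19776 and 23427 bp away.

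Among the lectin chaperones and Uggt, Calr carried a strong peak, Cnx99A one just below the optimal list and Uggt none. Calr (FBgn0005585, chr3R:9628691-9630851, minus strand) had its optimal peak at chr3R:9630181-9630405, in an intron. The signal was 396 (rank 33), higher than all Hsc70-3 summits but summit 4. Replicate 4 gave 148 (rank 54) and replicate 2 gave 256 (rank 36), with summits 28 bp apart. The same base lies in sisRNA:CR46357, a non-coding RNA gene annotated inside that intron, 145 bp from its start.

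Replicate 2 alone also had a peak at the Calr start itself, 5 bp upstream (chr3R:9630770-9630949), with a signal of 159 and rank 133. Neither replicate 4 nor the pooled list had a summit within 500 bp of that start. Strong peaks of 1 replicate with no pooled summit within 200 bp were not peculiar to Calr: they were 30 of the 200 strongest nuclear peaks of replicate 2 and 8 of the 200 strongest of replicate 4. Near the other end of Calr, both replicates listed a summit in the 3′ UTR (48.6, rank 1224 in replicate 4; 41.5, rank 3221 in replicate 2) and another beyond the gene (55.5, rank 910; 59.2, rank 1671). The pooled list held neither. Among the 2238 strongest peaks of replicate 4, 2034 nuclear ones had a replicate 2 summit within 200 bp, these Calr summits included. Of those, 74 (3.64%) had no pooled summit that near.

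Cnx99A (FBgn0015622, chr3R:29315254-29319644, minus strand), the membrane-bound calnexin, fell just below the optimal list. Its pooled summit, 68 bp upstream of a start (chr3R:29319510-29319913), had a signal of 74.1, where the weakest optimal peak had 76.9. It ranked 2363 among nuclear pooled peaks. Replicate 2 had the summit at the same base with a signal of 54.6 (rank 1963), whereas in replicate 4 the nearest was 116 bp upstream, at 14.7 (rank 11796). A second pooled summit 396 bp upstream had a signal of 42.2. The deposited −log10 q-value was 1.39 for the stronger Cnx99A peak in the pooled list. It was 3.12, the highest value in the optimal list, for all 6 optimal summits of Hsc70-3, Calr and Manf. That value was reached even at rank 579. How many other optimal peaks share it was not counted, so it does not set these summits apart.

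Uggt (FBgn0014075, chr3L:18872747-18878245, plus strand), the folding sensor of the glycoprotein cycle, had no summit nearer to its start than 14828 bp in any list. Its nearest optimal summit was 18052 bp away. The members ran in length from 1398 bp (Manf) to 5499 bp (Uggt), with Hsc70-3 at 5422 bp, and the part of length in which genes carried a peak was not tested.

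**Figure D2:**
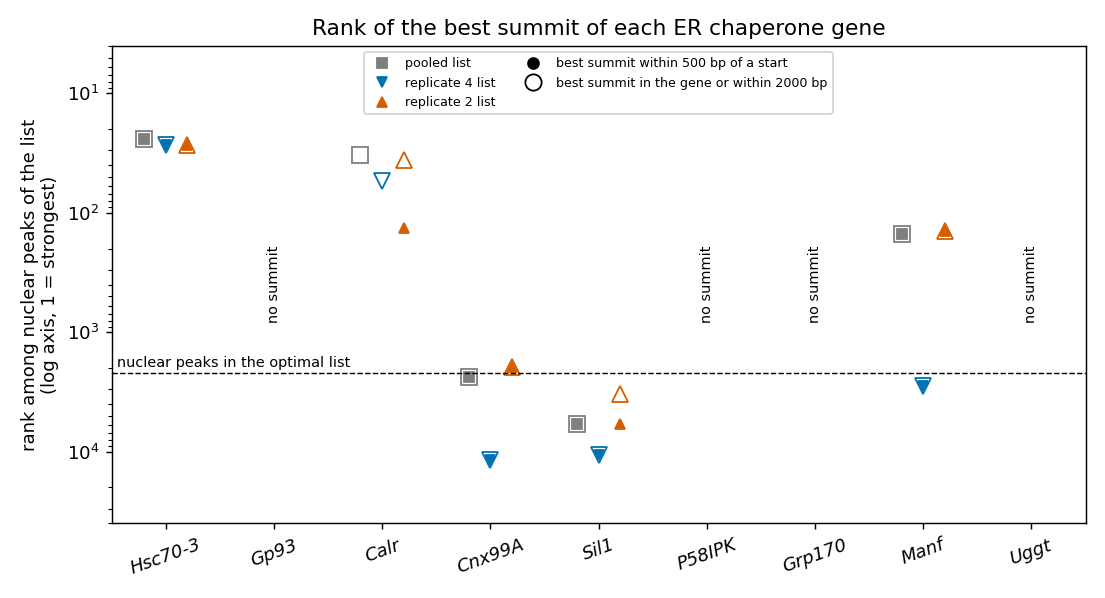
Rank of the best summit of each member among the nuclear peaks of the pooled list and of each replicate (log axis, strongest at the top). Filled symbols are summits within 500 bp of a start, open ones in the gene or within 2000 bp, and the dashed line marks the 2209 nuclear peaks of the optimal list. Hsc70-3 ranks near 27 in both replicates, Manf lies above the line in replicate 2 and below it in replicate 4, and 4 genes have no summit.

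Counted in the relaxed lists, Hsc70-3, Cnx99A, Sil1 and Manf had a promoter summit in the pooled list (4 of 9, against 23.7% of all genes). The same 4 had one in both replicates, against 17.3% of all genes. When each replicate was limited to its 2238 strongest peaks, the length of the optimal list, only Hsc70-3 had a promoter peak in both, against 3.43% of all genes. Replicate 2 limited in this way had promoter peaks at 4 members (Hsc70-3, Calr, Cnx99A and Manf), against 5.79% of all genes. Replicate 4 had one at 1 member (Hsc70-3), against 5.29%. The replicates differed in this count at 3 members, each with a promoter peak among the strongest of replicate 2 and not of replicate 4, which held for 2.36% of all genes. The reverse held for 0 members and for 1.86% of all genes. Over the nuclear optimal peaks matched in both, the median ratio of replicate 2 to replicate 4 signal was 1.36. At Manf it was 4.82, above the 95th percentile of 2.90. That ratio pairs the replicate 2 summit upstream of the start with the replicate 4 summit in the coding exon, 180 bp away. At the other optimal member summits the ratio ran from 1.11 at Hsc70-3 summit 2 to 1.72 at Calr.

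Ordered by their strongest optimal promoter peak, Hsc70-3 was in place 10 and Manf in place 72 of 707 genes, whose median signal was 118. The genes next to Hsc70-3 were Syp (494) and puc (491) above it, and Chro and Ssl1 (464 each) below it. Around Manf stood CG31145 (241) and CG14879, which shares its peak, above, with spin (239) and CG2641 (238) below. The order rests on pooled signal, and these neighbouring values are close.

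The ER folding enzymes and helpers outside the 9 members were taken from a list of 15 genes. Of these, 5 (33.3%, against 5.07% of all genes) had an optimal promoter peak: Fkbp14, a peptidyl-prolyl isomerase (350), ERp60 (289) and CaBP1 (163), both of the protein disulphide isomerase family, wbl, which encodes Windbeutel (137), and Ero1L, the ER thiol oxidase (113). All 5 also had one among the 2238 strongest peaks of each replicate, against 3.43% of all genes. The ERp60 summit lay 4 bp from its start and 160 bp from that of eEF1alpha1. Pdi, a protein disulphide isomerase, had an optimal intron peak of 540 (rank 11) at 538 bp from a start, like Calr just outside the promoter distance. No summit of any list lay in or within 2000 bp of 6 of the 15 (40.0%, against 46.1% of all genes): shv, GCS1, GCS2beta, Edem1, Edem2 and Sec63.

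Chaperones of other compartments that are related to BiP, Gp93 or the J-domain proteins, or that share their function, had no promoter peak in the optimal or the pooled list. Among 10 such genes, Hsc70-1, Hsc70-2, Hsc70-4, Hsc70-5, Hsp110, Hsp83, Trap1, DnaJ-1, Droj2 and Hsp60A, 0 had one in either list, against 5.07% and 23.7% of all genes. With only 10 genes, the count in the optimal list was near the share over all genes, and neither difference was tested. In 7 of them no list had a summit in the gene or within 2000 bp, against 46.1% of all genes. Hsp83, the cytosolic Hsp90, had an optimal peak (412, rank 32) beyond its 3′ end, 5827 bp from a start, which is also the promoter peak of CG32276 and gry. Hsc70-1 had a promoter summit in replicate 4 alone, with a signal of 12.1 and rank 17510.

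**Figure D3:**
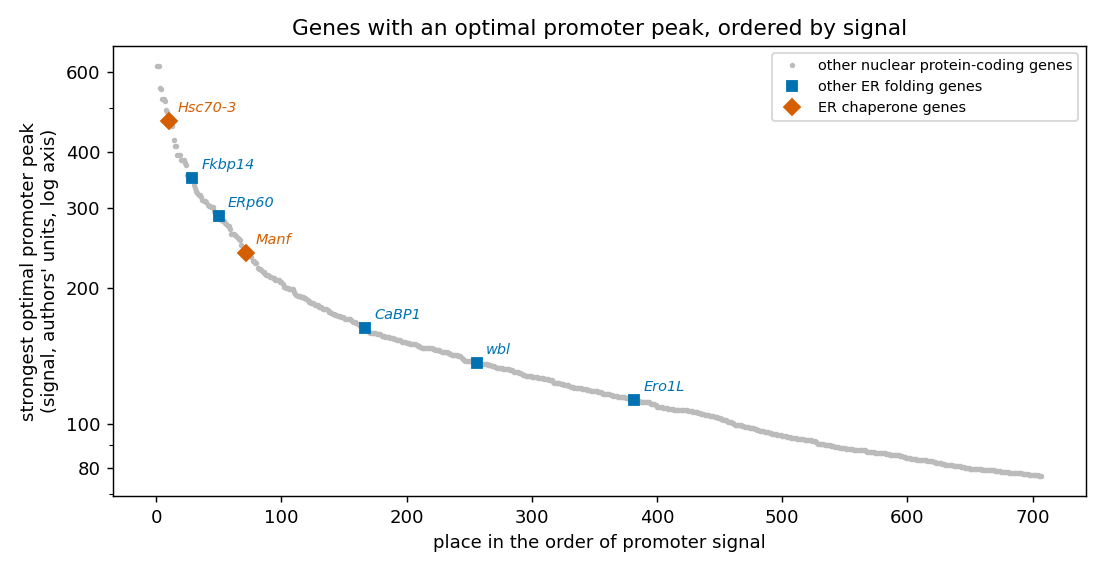
The 707 nuclear protein-coding genes with an optimal promoter peak, in order of the signal of their strongest one (log axis, the authors' units). Orange diamonds are members and blue squares other ER folding genes; Hsc70-3 (467) is in place 10 and Manf (239) in place 72, with Fkbp14 and ERp60 between them.

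The letters ACGTG occurred within 100 bp of all 6 optimal member summits, on either strand, against 431 of 2209 nuclear optimal summits (19.5%). In each case the nearest copy was centred 2 to 33 bp from the summit: 24, 2, 31 and 30 bp at Hsc70-3 summits 1 to 4, 13 bp at Calr and 33 bp at Manf. Within 50 bp all 6 still held it, against 10.5% of the 2209. The 6 are not independent, since 4 belong to 1 gene. Their windows held 42.3 to 50.7% G and C, above the median of 39.8% over nuclear optimal summits, and the part of base composition in this was not tested.

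The longer CACGTCA, whose reverse complement contains ACGTG, was found at Hsc70-3 summits 1, 2 and 3, or 3 of the 6 windows, against 1.40% of nuclear optimal summits. At summit 2 a second copy of the core, in the palindrome CACGTG, lay nearest the summit. GAGAG, the letters of GAGA factor sites, stood in 3 of the 6 windows against 39.9% of the 2209. The 8-base CCACGTCA was in none of the 6, against 0.272%.

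The core was also present at members without an optimal peak. In windows from 250 bases before to 50 after a start, 5 of the 9 members held ACGTG (Hsc70-3, Cnx99A, P58IPK, Grp170 and Manf), against 28.9% of protein-coding genes. Those with CACGTCA were Hsc70-3, P58IPK and Grp170, against 2.03%. A gene counts if any of its starts matches, so genes with more starts, such as Hsc70-3 with 4, have more windows. The shares by gene in this paragraph were not adjusted for that. In Grp170 its first base lay 7 bp upstream of the 5′ end of the gene, as printed above, and in P58IPK 23 bp downstream of the start. Neither gene had a summit near. The Cnx99A copy of ACGTG lay 89 bp upstream of the outer start. Gp93, Calr, Sil1 and Uggt had no ACGTG in these windows, and the Calr copy printed above belongs to its intron. CCAAT was found at 7 of the 9 members, against 53.4% of genes. The ER stress element, which joins CCAAT and CCACG, and CCACGTCA were found at none of the member starts, against 0.0215% and 0.523% of genes. Such matches describe letters in a window and say nothing on whether a factor was bound.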

How the data were processed

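The authors deposited narrowPeak lists on dm6 and dm3. Per the deposited notes, the relaxed lists hold peaks plus background and serve as input for IDR, 1 per replicate and 1 from both alignments together, and the optimal list derives from these 3. The IDR cutoff, aligner, peak caller and filters were not given in the labels or notes. The deposited signal of a peak is the authors' value, with scaling not stated, and the deposited −log10 q-value was read as the narrowPeak format defines it. Depth is unknown, so no interval that needs it is given. No SD is given across lists.

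The 4 dm6 lists were used. The dm3 lists were not used. Peaks were joined to Ensembl release 115 genes (transposable elements left out, nuclear arms with peaks) and Release 6 RefSeq sequence. All peak ends lay inside those sequences. Promoter windows were read from that genome at all annotated starts, in place of a promoter table. A promoter summit lies within 500 bp of any start, and replicate summits match within 200 bp. All 9 members matched by symbol; Hsc70Cb matched Hsp110 as a synonym. Motifs were sought on both strands. CACGTCA matches contain an ACGTG match, and CCACG can overlap one.

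The members, lists and alternatives were chosen with earlier results of these data known, so no test was run. All genes named are members, genes sharing their promoter summits, listed peers with a promoter peak and neighbours in the order of signal. The other genes with 4 summits, the listed genes without an optimal promoter peak, eEF1alpha1, CG32276 and gry were named after their values were seen. Scripts used Python 3.11.15, pandas 2.3.3 and matplotlib 3.10.9, and promoter assignment and motif search were tested on simulated data.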

Additional observations from a re-analysis of the deposited data

How the results depend on the processing

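The count of members with an optimal promoter peak (2) ran from 1 to 4 when the strongest peaks of a single replicate replaced the optimal list: 4 without replicate 4 and 1 without replicate 2. Over all genes the share went from 5.07% to 5.79% and 5.29%. At 1000 bp it was 3, with Calr. The count of members with a promoter peak among the strongest peaks of both replicates rose from 1 to 2 at 1000 bp, where Calr joined Hsc70-3, and to 2 with 2 times as many peaks per replicate. The 5 members with ACGTG at a start fell to 3 for the longer CACGTCA. The cause was not tested, except that a longer sequence containing the core can match no more windows. The other alternatives run (250 bp, gene 5′ ends, the 1119 strongest optimal peaks, replicate summits matched within 200 bp, gene margins of 1000 and 5000 bp, summit windows of 50 and 200 bp, and the remaining counts without 1 replicate) stayed within 1.5 times of the count reported. Rank in replicate 4 limits what can be said of Manf and Cnx99A, and the number of reads behind each peak is unknown.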
